A study of Mus musculus with 12 samples.

Results

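The regions described here are 1797 of the 121336 open chromatin regions measured by ATAC-seq, a readout of accessible DNA, in mouse blood progenitors. They were selected on the readout itself. For each region, CPM (counts per 1000000 counts of the library) were averaged per group and 0.25 was added. A region was kept when this value was at least 2 in wild-type GMP and at least 3 times that of wild-type LSK, and when the mutant over wild-type ratio was between 0.67 and 1.5 in GMP and in LSK. The members therefore gained accessibility from LSK to GMP in the wild type and had similar mean levels in the mutant in both cell types. They made up 1.48% of all regions and 17.5% of the 10245 regions that met the first pair of criteria, which are called opening regions below. The group means that chose the members are described without a test.

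The study was about the survival of preleukemic myeloid progenitors with reduced levels of the transcription factor PU.1, and ATAC-seq addressed the chromatin side of the accompanying gene expression changes. WT mice were littermates with an intact Spi1 locus, and URE mice (UREd/d) were homozygous for deletion of the upstream regulatory element, an enhancer of Spi1, the gene that encodes PU.1. All mice were C57BL/6 animals aged 8 to 12 weeks, and no further treatment was named. LSK were sorted from bone marrow as Lin- Sca-1+ c-Kit+ cells, a mixture of stem cells and multipotent progenitors, and GMP as Lin- Sca-1- c-Kit+ cells high for the Fc gamma receptors, which are granulocyte and monocyte progenitors. The deletion is present in every cell of the animal, so URE-LSK and URE-GMP both developed with reduced PU.1, and the mutants were sampled before overt leukemia. Each of the 4 groups, named by genotype and cell type (such as URE-GMP), held 3 libraries.

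Stem and progenitor cells become GMP under a small set of transcription factors. PU.1, an ETS family protein, and C/EBP proteins bind enhancers of granule, receptor and host defence genes, often with RUNX1 at the same elements, and accessibility rises there as the myeloid genes become active. Mice with low PU.1 still make GMP, and the animals later develop acute myeloid leukemia.

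The sequences below show what individual members contained. Each is a stretch of 160 bases of a member, read on the plus strand of GRCm38 from the RefSeq assembly, with matches to the C/EBP motif TTGCNNAA, the PU.1 motif GAGGAAGT and the RUNX motif AACCACA, on either strand, in capitals. The first 5 are each from the highest member in WT-GMP of a group of myeloid genes among those with a C/EBP match and with the stretch around it outside annotated UTRs. The region 2294 bp upstream of Elane, the neutrophil elastase gene, is at chr10:79884601-79884760. The region 13351 bp downstream of the S100a9 start site is at chr3:90682290-90682449, that near Klf6, a zinc finger factor, at chr13:5875622-5875781, that near Ly86, a partner of the Cd180 receptor, at chr13:37441086-37441245, and that upstream of Tlr2, a receptor for bacterial lipoproteins, at chr3:83885366-83885525.
Elane: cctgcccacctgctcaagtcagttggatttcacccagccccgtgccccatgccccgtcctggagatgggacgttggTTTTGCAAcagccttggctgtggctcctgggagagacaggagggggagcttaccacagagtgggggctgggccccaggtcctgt
S100a9: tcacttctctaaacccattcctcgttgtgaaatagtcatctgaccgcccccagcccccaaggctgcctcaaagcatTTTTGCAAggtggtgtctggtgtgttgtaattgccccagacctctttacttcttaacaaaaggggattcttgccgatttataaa
Klf6: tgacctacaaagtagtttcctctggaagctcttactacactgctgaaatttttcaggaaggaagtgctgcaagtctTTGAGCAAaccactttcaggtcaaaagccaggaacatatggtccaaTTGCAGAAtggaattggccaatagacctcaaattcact
Ly86: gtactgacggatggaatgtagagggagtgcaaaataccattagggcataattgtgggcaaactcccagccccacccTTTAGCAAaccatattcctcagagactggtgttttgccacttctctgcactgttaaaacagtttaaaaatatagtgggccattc
Tlr2: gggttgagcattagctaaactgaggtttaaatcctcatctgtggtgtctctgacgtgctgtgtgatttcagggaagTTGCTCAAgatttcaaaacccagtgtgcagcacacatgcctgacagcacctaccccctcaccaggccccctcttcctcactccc

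The other 3 sequences show the range of motif content. The stretch with the steepest gain in WT was at chr1:179046385-179046544, in an intron of Kif26b, and held 2 C/EBP matches. A member with a PU.1 but no C/EBP match was the Cebpe promoter region, shown over chr14:54713020-54713179 because the stretch lies outside annotated UTRs, and the capitals there mark the PU.1 motif on the minus strand. The stretch with a RUNX match alone was at chr11:87800418-87800577, near Mpo, the myeloperoxidase gene.
Kif26b: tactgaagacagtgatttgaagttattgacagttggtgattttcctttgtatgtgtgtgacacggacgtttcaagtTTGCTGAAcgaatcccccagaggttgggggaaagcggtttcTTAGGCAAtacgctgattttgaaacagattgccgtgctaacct
Cebpe: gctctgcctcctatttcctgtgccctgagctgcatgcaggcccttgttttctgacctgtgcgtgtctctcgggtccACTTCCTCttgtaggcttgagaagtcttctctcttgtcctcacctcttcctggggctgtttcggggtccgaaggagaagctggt
Mpo: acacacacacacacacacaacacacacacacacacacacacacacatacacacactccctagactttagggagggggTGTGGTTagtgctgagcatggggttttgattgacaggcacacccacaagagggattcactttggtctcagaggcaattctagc

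Library totals ranged from 23072701 to 62204826 counts, so that 3 counts were worth 0.0482 to 0.13 CPM. The deleted element was open in WT and at or near 0 in URE, since the region at chr2:91082790-91083700 had a mean of 42.1 CPM in LSK and 44.6 CPM in GMP of WT mice against 0.0598 and 0.0288 CPM in those of URE mice, which checks the genotype labels. Promoters of 7 of 8 GMP marker genes with a promoter region summed to between 57.4 and 118.5 CPM in the 6 LSK libraries and between 421.3 and 726.7 CPM in the 6 GMP libraries. Promoters of 11 of 12 LSK marker genes summed to between 497.9 and 539.2 against 384.3 and 464.7 CPM. Each sum was thus higher in its own population, though not every gene followed. Mpo, which held members, gave 306 CPM of the WT-GMP sum. In WT, means rose slightly from LSK to GMP at Procr (7.25 to 7.89 CPM) and Hoxa9 (37.7 to 39 CPM). The sort marker genes Ly6a and Fcgr3 had no promoter region. In bulk sorted cells, fewer cells of a type and less accessible DNA per cell cannot be told apart. Nothing in the labels says that same-numbered libraries came from separate or shared mice across groups, and n is 3 libraries per group throughout.

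A pair of libraries stood apart from their groups at the members. The members took 0.179%, 0.198% and 0.181% of the counts in WT-LSK replicates 1, 2 and 3, and 0.144%, 0.161% and 0.244% in those of URE-LSK. In GMP the shares were 1.34%, 1.29% and 0.955% in WT and 1.35%, 1.43% and 1.255% in URE. URE-LSK replicate 3 was thus above the other 5 LSK libraries and WT-GMP replicate 3 was below the other 5 GMP libraries, while every GMP share exceeded every LSK share. The totals of both libraries were within the range of the others. URE-LSK replicate 3 was the highest of the 6 LSK libraries in 810 members (45.1%), and WT-GMP replicate 3 the lowest of the 6 GMP libraries in 1164 members (64.8%). Choosing the regions again without both libraries gave 2234 regions, of which 1364 were members, and results without the pair are given below.

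**Figure D1:**
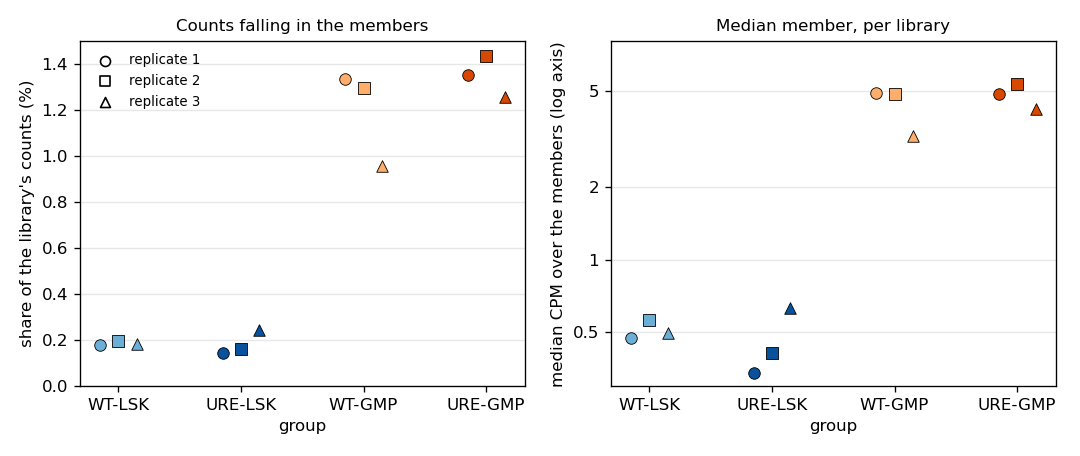
Left, share of each library's counts (%) that fell in the 1797 members. Right, median CPM over the members on a log axis. Each point is 1 library and its shape is the replicate number. The 6 GMP libraries lie between 0.955% and 1.43%, above the 6 LSK libraries, and replicate 3 of URE-LSK and of WT-GMP lie outside the range of the other replicates of their groups.

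In LSK few counts fell in the members, with a median of 13 to 29 counts per library against 118 to 332 in GMP. The median over members of the mean CPM was 0.511 in WT and 0.471 in URE, against 3.04 and 2.55 over all regions. In GMP it was 4.33 in WT and 4.81 in URE, with a range of 1.75 to 108.3 CPM in WT-GMP. The median member rose 5.52-fold from LSK to GMP in WT (range 3.002 to 28.1) and 6.28-fold in URE (range 1.63 to 25.6), both as ratios of mean CPM plus 0.25. All 3 WT-GMP libraries lay above all 3 WT-LSK libraries in 1796 members, and all 3 URE-GMP libraries above all 3 URE-LSK libraries in 1797 members. These separations were also met by 30.3% and 35.1% of all regions. Only the wild-type gain was set directly by the rule. The mutant gain followed from it and from both windows, and its lowest possible value is fixed by them. Without URE-LSK replicate 3 and WT-GMP replicate 3 the median gains of the same regions were 6.18-fold in WT and 7.15-fold in URE.

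The 12 regions in the plot of CPM per library come from the myeloid gene groups described next, except that of Kif26b, the steepest gain in WT. No late granule region is plotted. Mpo, which encodes an enzyme of primary granules, had the member with the highest CPM. This is a value per region and not per length, so that wide regions rank high. Its promoter region at chr11:87793172-87795464, 2293 bp wide, had in LSK 19.4, 17.3 and 22.2 CPM in WT and 9.46, 9.71 and 22.2 CPM in URE. In GMP it had 114.9, 104.8 and 105.4 CPM in WT and 135.2, 123.7 and 149.0 CPM in URE. Every GMP library exceeded every LSK library, and the URE-GMP libraries all exceeded the WT-GMP libraries, a ratio of means of 1.254. Mpo was assigned 6 regions, of which 5 opened in WT and 3 were members. The other two Mpo members, chr11:87795574-87797727 and chr11:87798477-87800739, rose 14-fold and 12.7-fold in WT, and their mutant over wild-type ratios in GMP were 1.39 and 1.49971. The region at chr11:87798477-87800739 lay just inside the upper limit of the GMP window.

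Elane, a primary granule protease, held a member at chr10:79883042-79884866, an intergenic region that overlaps an annotated UTR. In LSK it had 19.3, 18.6 and 19.8 CPM in WT and 12.1, 15.1 and 16.4 in URE, and in GMP 67.8, 59.7 and 54.5 CPM in WT and 60.6, 57.5 and 55.0 in URE. The GMP libraries of both genotypes overlapped, while the URE-LSK libraries were all below the WT-LSK libraries. Of the 11 primary granule genes on the list, Elane and Mpo held members, 4 in all among 27 opening regions. Among the genes without a member were Ctsg, with 2 of 3 opening regions higher in both URE cell types, and Ms4a3, with 2 of 4 lower in both and all 4 lower in URE-GMP. The 14 late granule genes held 1 member, an S100a9 region at chr3:90682242-90682479 that had in GMP 2.60, 2.21 and 1.18 CPM in WT and 3.04, 2.64 and 3.05 CPM in URE against at most 0.383 CPM in any LSK library.

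Genes of myeloid transcription factors held 10 members among 57 opening regions, among them regions at Batf3, Cebpa, Cebpb, Cebpe, Egr2, Klf6 and Runx1. Cebpe, which drives granulocyte maturation, was represented by its promoter region at chr14:54711866-54713235. In LSK this region had 5.96, 4.68 and 7.25 CPM in WT and 2.84, 3.36 and 5.70 in URE, and in GMP 37.0, 31.2 and 22.7 CPM in WT and 44.0, 40.5 and 37.5 in URE. The URE-GMP libraries all lay above the WT-GMP libraries, and 2 of 3 URE-LSK libraries lay below all WT-LSK libraries. Its gain was 4.91-fold in WT and 9.71-fold in URE.

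Cebpa encodes the C/EBP factor required for GMP to form. Its member lay 33155 bp downstream of the start site, at chr7:35152270-35152648, and had in LSK 0.336, 0.347 and 0.237 CPM in WT and 0.340, 0.602 and 0.780 CPM in URE. In GMP it had 9.37, 5.59 and 4.92 CPM in WT and 7.48, 6.75 and 7.84 CPM in URE. The GMP libraries overlapped between genotypes, and 2 of 3 URE-LSK libraries were above all WT-LSK libraries. It was the only one of 13 regions assigned to Cebpa that opened by the rule. Runx1 held 2 intronic members, whose mutant over wild-type ratios in GMP were 0.764 (chr16:92867269-92867712) and 1.22 (chr16:92764747-92765206), on opposite sides of 1. The Klf6 member shown above went from a mean of 2.49 to 9.72 CPM in WT and from 2.05 to 13.1 CPM in URE.

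Genes of the phagocyte oxidase, which produces superoxide, held 2 members, at Ncf1 and Ncf4, cytosolic subunits of the enzyme. The Ncf1 region, 2842 bp upstream of the start site at chr5:134231414-134233521, came next after the Mpo promoter in WT-GMP. In LSK it had 25.8, 26.8 and 23.3 CPM in WT and 25.5, 28.1 and 35.6 in URE, and in GMP 92.7, 74.6 and 70.1 CPM in WT and 83.5, 87.3 and 83.7 in URE. Libraries of both genotypes overlapped in both cell types. Its mean of 25.3 CPM in WT-LSK was the highest of all members in that group. None of the opening regions of Cybb and Cyba were members, and both opening regions of Cybb, the catalytic subunit, were lower in URE-GMP.

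Monocyte genes held 9 members among 36 opening regions, which is 25% of them against 17.8% over all genes, and 14 other opening regions were lower in both URE cell types. The members lay at Ccr2, Cd14, Cx3cr1, F13a1, Ly6c2, Ly86 and Plac8. The F13a1 member, 54864 bp upstream of the start site of this coagulation factor subunit gene, had in LSK 0.643, 2.12 and 1.10 CPM in WT and 0.522, 1.04 and 2.38 CPM in URE. In GMP it had 12.1, 12.3 and 9.44 CPM in WT and 13.9, 14.5 and 14.01 CPM in URE. The LSK libraries overlapped and the URE-GMP libraries all lay above the WT-GMP libraries. At Ly86, 26 regions were assigned and 8 opened, 2 of them members, 4 lower in both URE cell types and 1 higher in both. Among the 2 Ly86 members, that at chr13:37440555-37441353 had in GMP 24.2, 25.9 and 26.8 CPM in WT and 36.1, 33.6 and 39.2 CPM in URE, and it lies 95745 bp from the Ly86 start site, at the annotated start of another transcript. The Ccr2 member, the promoter region of this chemokine receptor gene, was the only one of 8 assigned regions that opened and had mean GMP levels of 4.25 CPM in WT and 3.78 CPM in URE.

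Pattern recognition genes held 6 members among 26 opening regions, at Cd180, Nlrp3, Tlr2 and Tlr4. The Tlr2 member at chr3:83885073-83885578 had in LSK 1.09, 1.34 and 1.27 CPM in WT and 0.613, 0.820 and 2.43 CPM in URE. In GMP it had 17.3, 20.7 and 19.5 CPM in WT and 24.7, 26.0 and 25.1 CPM in URE, the latter all higher. The intronic Tlr4 member at chr4:66852004-66852392, in the endotoxin receptor gene, had in GMP 8.63, 8.74 and 4.47 CPM in WT and 8.24, 9.32 and 6.34 CPM in URE, so the genotypes overlapped. No LSK library exceeded 0.4375 CPM at the Tlr4 member. The Nlrp3 region 2989 bp upstream of this inflammasome sensor gene had in GMP 11.4, 12.5 and 11.2 CPM in WT and 13.5, 20.96 and 12.8 CPM in URE, the latter all higher.

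Cytokine receptor genes held 6 members among 33 opening regions, 1 each at Csf1r, Csf2rb, Il4ra, Il6ra, Tnfrsf1a and Tnfrsf1b. Of the opening regions that were not members, 9 were lower and 5 were higher in both URE cell types. The lower ones included the other opening region of Csf1r. The Csf1r member, an intronic region, had mean GMP levels of 2.59 CPM in WT and 2.82 CPM in URE. Mean levels at the Csf1r promoter region were 11.6 CPM (WT) and 2.98 CPM (URE) for GMP, and 4.09 and 0.172 CPM for LSK. The Csf2rb member, 3772 bp upstream of this common beta chain gene, had in LSK 0.336, 0.390 and 0.0432 CPM in WT and 0.113, 0.273 and 0.477 CPM in URE. In GMP it had 6.44, 4.85 and 2.81 CPM in WT and 5.36, 5.58 and 5.66 CPM in URE, within the range of the WT-GMP libraries. The Tnfrsf1b member had mean GMP levels of 4.67 CPM in WT and 4.68 CPM in URE. Neither of the opening regions of Csf3r, the G-CSF receptor, was a member: 1 was lower and 1 was higher in both URE cell types.

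**Figure D2:**
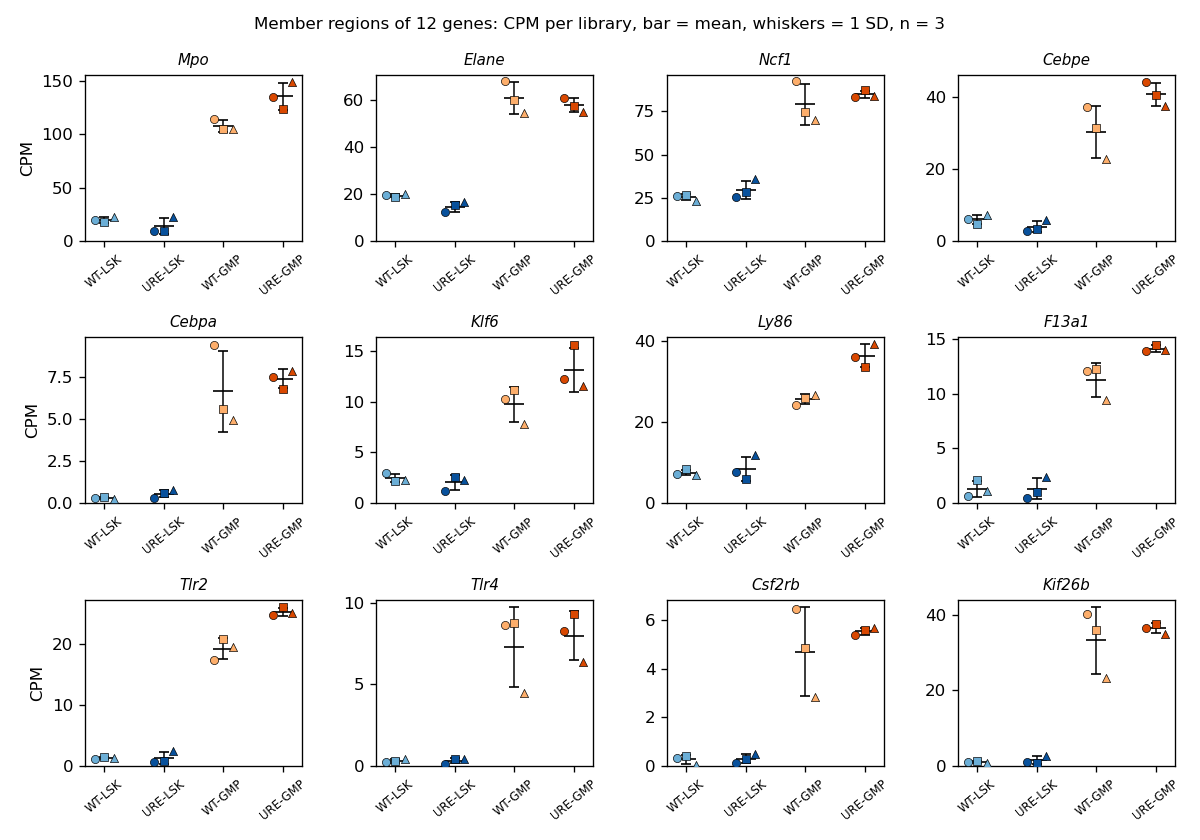
CPM per library at member regions of 12 genes, by group, with the mean (bar) and 1 SD (whiskers, n = 3). Each vertical axis starts at 0. Every region has a higher mean in GMP than in LSK in both genotypes, and at Mpo the URE-GMP libraries lie between 123.7 and 149.0 CPM against 104.8 to 114.9 CPM in WT-GMP.

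In the 7 lists of myeloid genes, members made up 1.79% to 6.29% of the assigned regions and 9.09% to 25% of the opening regions, against 1.49% and 17.8% over all genes. The lists for other lineages held 17 to 70 regions each, too few for a low count of members to be read. No region assigned to a gene of the B, T, erythroid, megakaryocyte, eosinophil or dendritic list was a member, and none of the 172 regions at LSK marker genes was. The mast and basophil list had 1 member among 42 regions (2.38%), in an intron of Cpa3, and the macrophage list had 1 among 70 (1.43%), in an intron of Csf1r. Those lists held 0 to 5 opening regions each, apart from 12 in the macrophage list. Over all genes, 1586 members lay within 100 kb of a protein-coding start site and were assigned to 1349 genes by the nearest one. Of these genes 1156 had 1 member, 159 had 2 and 34 had 3 or more.

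Genes with the most members were 2010111I01Rik, Snx18, Mtus1 and Foxp1, with 5 each, and St3gal1, with 4. The Foxp1 members, in a gene for a forkhead repressor, were all intronic, and their mutant over wild-type ratios in GMP ran from 0.851 to 1.48. The highest Snx18 member, at chr13:113600553-113601509, had in GMP 27.1, 27.0 and 21.7 CPM in WT and 37.3, 38.7 and 36.5 CPM in URE, which did not overlap. The highest 2010111I01Rik member, at chr13:62952474-62953203, had in GMP 27.6, 29.99 and 27.4 CPM in WT and 27.8, 27.0 and 30.2 CPM in URE, which overlapped. Of all members, 201 (11.2%) lay within 10 kb of another member and 688 (38.3%) within 10 kb of another opening region.

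Among the members with the highest levels in WT-GMP were also regions at Cnr2, a cannabinoid receptor gene, and Fgf1, a fibroblast growth factor gene. The Cnr2 region, at chr4:135898342-135899437, had in LSK 17.7, 14.3 and 15.4 CPM in WT and 19.7, 17.96 and 19.8 in URE, and in GMP 58.5, 50.7 and 46.9 CPM in WT and 51.3, 48.7 and 46.6 in URE. The URE-LSK libraries all lay above the WT-LSK libraries, and the GMP libraries overlapped. The Fgf1 region had in LSK 4.195, 3.55 and 2.83 CPM in WT and 1.70, 1.695 and 5.201 in URE, and in GMP 55.6, 54.0 and 46 CPM in WT and 61.05, 62.8 and 64.1 in URE. There the URE-GMP libraries all lay above the WT-GMP libraries, and URE-LSK replicate 3 was the highest LSK library.

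The steepest gain in WT was at the intronic Kif26b region chr1:179045844-179046831, 247899 bp from the start site. In LSK it had 1.01, 1.17 and 0.648 CPM in WT and 0.953, 0.629 and 2.60 in URE, and in GMP 40.2, 36.0 and 23.4 CPM in WT and 36.6, 37.6 and 35.01 in URE. The gain was 28.1-fold in WT and 22.3-fold in URE. The next 5 were regions at Naip2, a bacterial protein sensor, Lsm6, Nampt, Fam49a and Afdn. Their WT gains were 21.9-fold to 26.1-fold and their URE gains 16.8-fold to 19.95-fold. The Fam49a region lay 258408 bp from that start site. All 6 gains were smaller in URE than in WT, whereas over all members the gain was larger in URE in 1164 (64.8%), and the 6 regions were chosen for a large gain in WT.

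Motif content was not used to choose the members. A C/EBP match (TTGCNNAA, either strand) was present in 887 of 1797 members, 49.4% (95% Wilson interval 47.1 to 51.7). It was present in 43.0% of all 10245 opening regions and in 20.5% of all 121336 regions. The share was 28.5% (26.9 to 30.2) in the 2851 opening regions that were lower in both URE cell types and 54.4% (52.2 to 56.6) in the 1997 that were higher in both. In opening regions that met only the LSK window it was 49.0% where URE-GMP was higher and 34.0% where it was lower. In those that met only the GMP window it was 51.4% where URE-LSK was higher and 47.1% where it was lower. A PU.1 match (GAGGAAGT) was in 9.57% of members (8.30 to 11.0), in 17.4% of opening regions lower in both (16.02 to 18.8) and in 3.36% of those higher in both (2.65 to 4.24). It was in 10.7% of all opening regions and in 10.5% of all regions. The intervals cover counting error only and take each region as 1 draw, although neighbouring regions are not independent. For both motifs the members lay between the lower and the higher class, with intervals that did not overlap. A RUNX match (AACCACA) followed the same order, with 17.6% in members (15.9 to 19.4), 11.6% in the lower class and 24.3% in the higher class. It was in 16.8% of all opening regions and in 17.3% of all regions. In opening regions that met only the GMP window the RUNX share was 32.4% where URE-LSK was higher and 12.85% where it was lower. The PU.1 shares there were 5.77% and 17.25%. Where only the LSK window was met, the RUNX share was 17.3% with URE-GMP higher and 10.5% with it lower, and the PU.1 shares were 6.50% and 10.9%. In the 2234 regions chosen without URE-LSK replicate 3 and WT-GMP replicate 3 the C/EBP, PU.1 and RUNX shares were 52.2%, 7.88% and 18.5%.

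Regions of the higher class were wider, with a median of 422 bp against 329 bp in members and 312 bp in the lower class, and a wider region can hold more matches. Within the central 200 bases of each region, the C/EBP share was 38.1% in members (35.8 to 40.3), 21.3% in the lower class and 38.7% in the higher class, so that members and the higher class differed by less than their intervals. The PU.1 share in the central 200 bases kept its order, with 6.18% in members, 14.3% in the lower class and 1.40% in the higher class. C/EBP matches gathered at the centre of the members: there were 14.7 and 15.4 per 100 members in the 50 bp on either side of the centre, and 5.23 and 4.90 at 100 to 150 bp. The higher class was similar, with 14.4 and 14.8 at the centre and 5.77 and 6.43 at 100 to 150 bp. Over all regions the values were 4.08 and 4.05 at the centre and 2.40 and 2.41 at 100 to 150 bp.

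**Figure D3:**
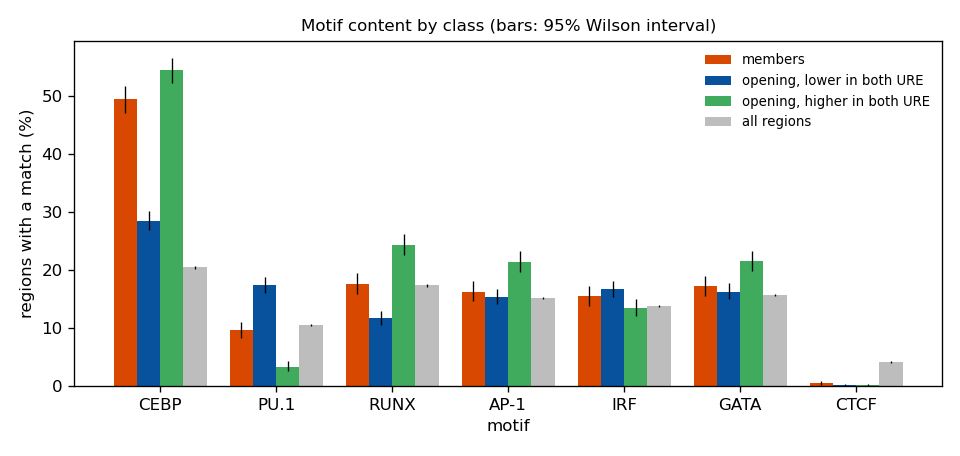
Share of regions (%) with at least 1 match to each motif, in the members, in opening regions lower or higher in both URE cell types, and in all regions, with 95% Wilson intervals. Members have C/EBP matches in 49.4% and PU.1 matches in 9.57%, between the lower and the higher class in both.

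**Figure D4:**
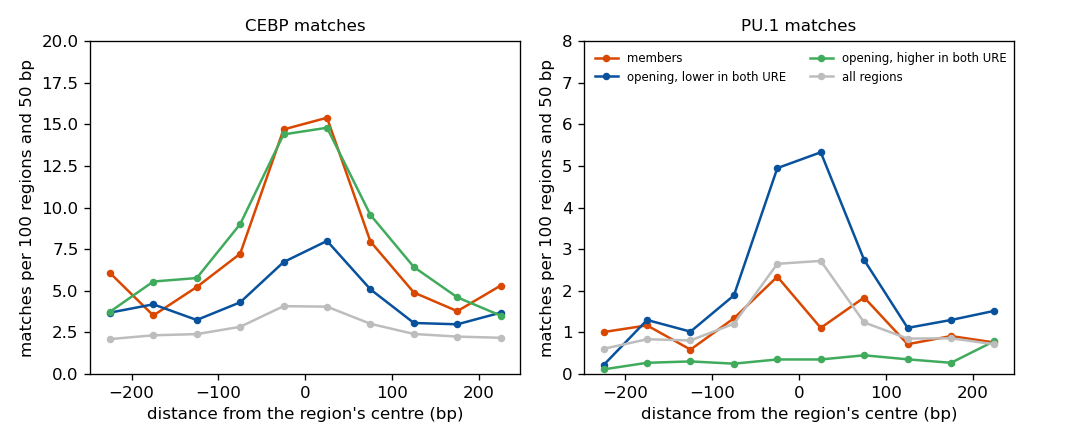
Matches per 100 regions and 50 bp, by distance from the centre of the region (bp), for C/EBP (left) and PU.1 (right). Next to the centre C/EBP matches peak at 15.4 per 100 regions in the members and at 14.8 in the higher class.

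Read from the motif, opening regions with a C/EBP but no PU.1 match numbered 4032, of which 20.1% were members, 17.1% were lower and 26.0% were higher in both URE cell types. Opening regions with a PU.1 but no C/EBP match numbered 729, of which 13.3% were members, 51.3% were lower and 4.12% higher in both. Of the 369 with both matches, 20.3% were members and 32.8% were lower in both. Among members, those with a C/EBP match had a median gain of 5.98-fold in WT and 6.68-fold in URE, against 5.26-fold and 5.91-fold in those without, in regions of 339 and 320 bp. Members with a PU.1 match had a median mutant over wild-type ratio of 0.891 in LSK and 1.09 in GMP, and those without had 0.973 and 1.11. The CTCF motif, of the insulator protein, was found in 8 members (0.445%) and in 4.12% of all regions. It was also rare in opening regions as a whole, with 0.234% of all of them, 0.105% of the lower and 0.150% of the higher class. In those within the LSK window and higher in URE-GMP it was found in 0.677%. None of the 10 motifs searched was found in 356 members (19.8%).

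Members were mostly away from promoters. A start site lay within 500 bp of 7.40% of members, against 18.9% of all regions and 7.34% of all opening regions. The share was 7.51% in the lower and 6.66% in the higher class. Introns held 49.97% of members and intergenic DNA 37.3%. The median distance from a region's centre to the nearest protein-coding start site was 18751 bp in members and 15580 bp in all regions, and the median GC content was 47.2% and 49.8%.

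The comparison of genotypes at the members is a description, since both ratios were bounded by the rule. In GMP the median mutant over wild-type ratio was 1.11, and it was over 1 in 1163 members (64.7%). In LSK the median was 0.967, and it was over 1 in 808 members (45.0%). Over all regions the medians were 0.963 in GMP and 1.01 in LSK. The URE-GMP libraries were all above the WT-GMP libraries in 340 members (18.9%) and all below in 83 (4.62%), against 27.5% and 35.5% of all regions. Without URE-LSK replicate 3 and WT-GMP replicate 3, the median ratios of the same 1797 regions were 1.0 in GMP and 0.859 in LSK.

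**Figure D5:**
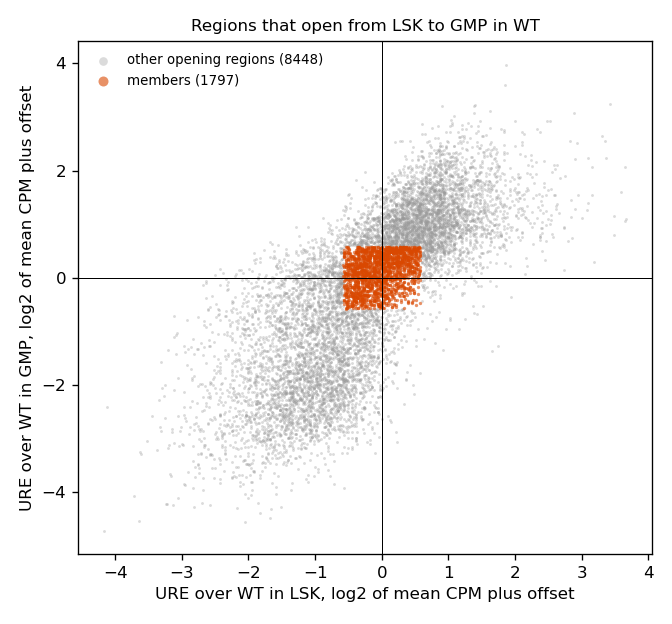
Mutant over wild-type ratio of mean CPM plus 0.25 (log2) in LSK (horizontal) and GMP (vertical) for the 10245 opening regions. The 1797 members, in orange, fill the square set by the 0.67 to 1.5 windows, and 2851 other regions lie below it in both cell types and 1997 above it in both.

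In a model fitted to all 121336 regions (edgeR quasi-likelihood, a region being called at an adjusted p under 0.05 and an absolute log2 fold change over 1), 1797 members were called for GMP against LSK in WT, where 37.8% of all regions were called, and 1796 for the same step in URE, where 49.1% were called. No member was called between genotypes in GMP, against 39.7% of all regions, and DESeq2 also called 0. Without the fold threshold 228 members passed the adjusted p in GMP, against 60.9% of all regions, and 334 had an unadjusted p under 0.05, against 64.6% of all regions. In LSK 15 members were called, against 37.5% of all regions. For the interaction, in which the LSK genotype effect is subtracted from the GMP one, 9 were called, against 14.0%. The rule used these contrasts, and nothing is read from the counts. The median standard error of a member's log2 fold change was 0.276 between genotypes in GMP and 0.393 in LSK.

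How level the members were between genotypes depended on the scaling. The median log2 fold change of the members in GMP was 0.28 with TMM scaling, 0.17 with library size alone, 0.54 with GC content offsets and 0.73 with offsets that level each abundance class, against 0.06, -0.06, 0.10 and 0.13 over all regions. In LSK the same 4 scalings gave 0.06, -0.05, 0.32 and 0.55 for the members. With abundance offsets 595 members were called higher in URE-GMP and 393 in URE-LSK, against 21.9% and 21.7% of all regions, and none were called lower. With GC content offsets 114 and 125 were called higher, against 19.1% and 18.2% of all regions. Choosing the regions on values adjusted in the same manner gave 1475 regions with 798 of the members under abundance offsets and 1513 with 898 under GC content offsets. The description of these regions as opening normally in the mutant therefore holds for CPM, and 44.4% and 50% of the members kept it under abundance and GC content offsets.

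The 0.25 added to each mean also bore on the LSK window, since 397 members (22.1%) had a mean under 0.25 CPM in WT-LSK. Without it, 1294 members (72.0%) were within the LSK window, 211 were above and 292 below. All 15 members called in LSK were higher in URE-LSK, with means there of at most 0.574 CPM. An example is the region at Mthfs, which had in LSK 0.0559, 0 and 0.0432 CPM in WT and 0.0454, 0.191 and 0.260 CPM in URE, or a ratio of 1.47 once 0.25 had been added. The Cebpa member described above was also among the 15, with a ratio of 1.48. Counts of this size do not fix the LSK level of a single member. The direction of the LSK calls also depended on 1 library. With URE-LSK replicate 3 left out, 66 members were called, 65 of them lower and 1 higher in URE-LSK. Of all 121336 regions 42947 were then called, 28587 of them lower. The median log2 fold change of the members in LSK was -0.234 in that fit, against 0.058 with all libraries.

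Summed promoter accessibility of 10 marker lists was compared between genotypes in GMP. All URE-GMP libraries were above all WT-GMP libraries in 2 lists and below them in 5, and the genotypes overlapped in 3. The GMP marker genes summed to 421.3 to 541.8 CPM in WT and 648.4 to 726.7 CPM in URE, and 3 of these 8 genes, Cebpe, Elane and Mpo, held members. Mean promoter levels went from 306 CPM in WT to 455 in URE at Mpo and from 49.1 to 98.4 at Ctsg. Of the 7 genes with a promoter region 5 had the higher mean in URE, while Ms4a3 went from 17.2 to 11 CPM and Prtn3 from 35.7 to 34.3. The T lineage list, with promoter regions at 5 of 8 genes, was the other higher one, at 66.2 to 73.3 CPM in WT and 85.3 to 89.95 in URE. Most of that sum came from Cd3d, with means of 51.9 CPM in WT and 65.6 CPM in URE. Cd4 alone was lower in URE, at 0.974 and 0.1 CPM. The eosinophil list was lower, at 14.9 to 20.1 CPM in WT and 4.16 to 5.37 in URE, as were the erythroid list (23.3 to 29.7 and 16.01 to 17.7), the dendritic list (108.3 to 121.8 and 77.8 to 87.3) and the LSK markers (411.1 to 464.7 and 384.3 to 388.1). Promoters of 4 of 8 macrophage markers summed to 24.3 to 29.1 CPM in WT and 14.4 to 17.6 CPM in URE. The megakaryocyte list overlapped, at 32.1 to 60.1 and 20.5 to 33.2 CPM, and so did the B lineage and the mast and basophil lists. The part of such differences in the members' ratios was not tested.

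The same measure was also read in libraries left out of a choice. The peaks had been called per group, so the list of regions was not independent of those libraries. The rule was applied to replicates 1 and 2, 1 and 3, or 2 and 3, and the chosen regions were then read in the 4 libraries of the replicate number left out. The chosen regions were not the same set as the members. With replicate 1, 2 and 3 left out, 1240, 1295 and 1377 of them were members. With replicate 1 left out 1529 regions were chosen, and 90.6% of them had a WT gain of at least 3-fold in the left-out libraries, against 11.8% of all regions. With replicates 2 and 3 left out the shares were 87.2% and 72.6%, against 11.8% and 8.10%. The left-out URE-GMP library was above the left-out URE-LSK library in every chosen region, 1529, 1589 and 2127 regions in turn. A ratio over 1 was met by 50.3%, 48.6% and 46.1% of all regions. A URE gain of at least 3-fold, the measure used for WT, was seen in 95%, 96.5% and 79.2% of the chosen regions with replicate 1, 2 and 3 left out, against 17.7%, 18% and 13.1% of all regions.

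The genotype windows were read again in fewer of the chosen regions than the WT gain in each left-out set. The mutant over wild-type ratio in GMP was within 0.67 to 1.5 in the left-out libraries for 75%, 83.9% and 51.0% of the chosen regions, with replicate 1, 2 and 3 left out, against 43.1%, 50.4% and 45.0% of all regions. In LSK the shares were 65.8%, 61.0% and 56.6%, against 51.9%, 51.9% and 48.1%. All criteria together were met by 43.9%, 45.8% and 19.6% of the chosen regions, against 1.72%, 1.60% and 0.790% of all regions. The lowest shares belonged to replicate 3, the number of both libraries that stood apart, where the median ratios were 1.44 in GMP and 1.30 in LSK. These readings rest on 1 library per group and carry no test.

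At the edges of the rule, a region at Nek7 was just inside the minimum in WT-GMP, at 2.00321 against 1.99949 for a region at Tram2 just outside. A region at Slc41a2 had a WT gain of 3.00185, and one at Amdhd2 just outside had 2.99821. For the GMP ratio the Mpo region was inside at 1.49971 and a region at Serpine2 outside at 1.50003, and at the lower limit a region at Gapdhs was inside at 0.67103 and one at Gpr35 outside at 0.669428. For the LSK ratio a region at Id2 was inside at 1.49827 and one at Cpvl outside at 1.50221. Values this close cannot be told apart at the spread between replicates.

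The study had grouped genes by their change in single-cell RNA-seq of cells from the same kinds of mice. Of the members, 53 (2.95%) lay within 5 kb of a start site of a gene in the signature 4 group, which was higher in the mutant, against 1.80% of all regions, 0.842% of the lower and 4.01% of the higher class. For signature 1, which was lower in the mutant, there were 3 members (0.167%) against 0.779% of all regions. Signature 2, also lower in the mutant, had 33 members (1.84%) against 1.48% of all regions, and signature 3, higher in the mutant, had 12 (0.668%) against 0.976%. The member share was thus above that of all regions for 1 signature of each direction and below it for the other. These lists came from other cells and were used here without a test.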

How the data were processed

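ATAC-seq had been made by the OmniATAC protocol from LSK and GMP of WT and URE mice, 3 libraries per group. The table deposited by the authors holds raw counts of reads in each region, not normalized. By the study's methods, reads were placed on GRCm38 with bowtie2, duplicates and reads off the primary chromosomes were removed, and Genrich peaks called per group were merged, and the submitters' processing notes also name cutadapt, bedtools and featureCounts. What was counted, fragments or single read ends, is not given in the sources used here. Column totals served as depth, so a count in a deep library is the more precise.

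Members were chosen on CPM as described, and the members, gene lists and tests were all chosen with earlier results of these data known. Regions were annotated with GENCODE M21, region starts were taken as counted from 0 and are given from 1, a promoter lay within 500 bp of a start site, and a gene was the nearest protein-coding start site within 100 kb. Some named regions lay farther away and carry the name of the nearest gene without being assigned to it. Motifs were searched on both strands, namely GAGGAAGT for PU.1, CCGGAAGT for other ETS factors, AACCACA for RUNX, TTGCNNAA for C/EBP, TGANTCA for AP-1, GAAANNGAA for IRF, AGATAA for erythroid zinc finger (GATA) factors, AATCNNTGC for GFI1, GGGTGNGGC for KLF and the CTCF motif by name, and matches of different motifs could overlap. Counts were fitted in R 4.3.3 with edgeR 4.0.16 (TMM, quasi-likelihood, all 12 libraries, 1 coefficient per group, two-sided, Benjamini-Hochberg over 121336 regions, filterByExpr removing none), a step tested on simulated data. The labels do not tie libraries to mice across groups, and p-values measure the spread between these libraries. Pairing of same-numbered libraries was checked through the correlation of their deviations from the group means. For WT-LSK and WT-GMP the correlations were 0.150, 0.182 and 0.194, over the criterion of 0.1, and in no other pair of groups compared did all 3 exceed it. Text regions were named by rule: the 6 highest in WT-GMP (1 of which is not reported here), the 6 largest WT gains, up to 4 genes per myeloid list, the 5 genes with most members, and regions at the thresholds. Other regions and genes were named after their values were seen. Alternatives were DESeq2 1.42.0, other scalings, filters, thresholds and windows, the replicate block, and leaving out each library. Alternatives without both URE-LSK replicate 3 and WT-GMP replicate 3, and motif shares under abundance offsets, were added after the data were seen.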

Additional observations from a re-analysis of the deposited data

Results flagged for a closer look

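At 9 members the genotype effect in GMP differed from that in LSK in the test of the interaction (edgeR quasi-likelihood, adjusted over all regions), of 14.0% of all regions. Both effects were bounded by the choice of the members, so these are descriptions. The interaction on the log2 scale, positive where the URE effect was more positive in GMP, was 1.32 at a Samsn1 region, 1.23 at a Foxd4 region, 1.18 at a Tmem50b region and 1.03 at the Cebpe promoter region. It was 1.08 at regions of Mctp1, Tbl1x and Perp and 1.07 at a Sox10 region. At an Id2 region it was -1.19, the only one in which URE was higher in LSK and lower in GMP. Mean LSK levels at the Samsn1 region were 0.659 CPM in WT and 0.385 CPM in URE, and mean GMP levels were 3.8 and 5.57 CPM.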

How the results depend on the processing

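The number of regions chosen was 1797, and it was 1033 with a minimum of 4 in WT-GMP, 2788 with a WT gain of at least 2, 620 with narrower windows that start at 0.8 and 3975 with windows of 0.5 to 2. It stayed between 1319 and 1821 under TMM, RLE, GC content and abundance scaling, no added value, group medians, a gain of at least 4 and autosomes only, and between 1550 and 2285 when 1 library was left out, the highest without WT-GMP replicate 3. C/EBP, PU.1 and RUNX shares were 38.1%, 6.18% and 11.0% in the central 200 bases. The C/EBP and PU.1 shares were 52.2% and 7.88% in regions chosen without URE-LSK replicate 3 and WT-GMP replicate 3, and the PU.1 share was 12.3% under abundance offsets. With a start site within 1000 bp the promoter share was 12.2%. A mean CPM of at least 2 tested 1124 members, of which 1124 and 1123 were called for the step in WT and in URE and 6 between genotypes in LSK. Members called between genotypes in GMP numbered 0, and 114 with GC content offsets, 595 with abundance offsets, 228 with no fold threshold, 1 with the replicate block and 0 to 25 when 1 library was left out, 25 without WT-GMP replicate 1. In LSK 15 were called, and 125 with GC content offsets, 393 with abundance offsets, 90 with no fold threshold, 24 with RLE factors, 44 with DESeq2, 0 with glmTreat and 0 when only the groups compared were fitted, and 12 to 66 when 1 library was left out, 66 without URE-LSK replicate 3. Of those 66, 65 were lower in URE-LSK, whereas all 15 of the main fit were higher. For the interaction 9 were called, and 17 with no fold threshold, 0 with glmTreat, 22 with DESeq2, 15 with the replicate block and 3 to 103 when 1 library was left out, 103 without URE-LSK replicate 3. The cause of these changes was not tested. With the replicate block the call counts for the steps in WT and URE were 1797 and 1796 and that for the LSK genotype contrast was 21. Of the ratios of named regions, the 2010111I01Rik ratio in GMP moved by more than the spread between replicates, to 1.09 under TMM. Under TMM 6 of 35 named members left a genotype window, with GMP ratios of 1.51 at S100a9, 1.53 at Ly86, 1.56 at Cd180, 1.60 at Snx18 and 1.54 at St3gal1 and an LSK ratio of 1.54 at Cebpa, and 1491 of all members (83%) stayed members. Depth limits the LSK side most, since the median member had 13 to 29 counts in an LSK library and 118 to 332 in a GMP library.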
